A study of Homo sapiens with 6 samples.

Results

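Cytokine receptors, the Janus kinases (JAKs) bound to them and the proteins that restrain the pathway were examined in HEK293 cells labelled as STAT5B knockout and in wild-type HEK293 cells. The 39 genes were taken from a list of symbols that was chosen with earlier results of these data known. Each matched a single Ensembl identifier, and they stand among 60609 genes in the deposited tables. Of the 39, 35 passed the filter on low counts and were tested with 15958 genes in all. HEK293 is a human embryonic kidney line transformed with adenovirus DNA. RNA sequencing of mRNA libraries covered 3 STAT5B knockout and 3 wild-type samples. The knockout cells were CRISPR/Cas9 clones picked for mutations on both STAT5B alleles by DNA sequencing and protein blot, and the labels do not say how many clones the 3 samples stand for. The growth protocol also speaks of GS knockout clones, a term it does not explain. Both genotypes were grown in DMEM with fetal bovine serum, and no added cytokine or time point is named. Sample titles of both genotypes carry the word Sham, which the labels do not explain.

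Cytokine receptors have no enzyme of their own. Binding of a cytokine brings receptor chains together, the JAKs on their tails phosphorylate each other and the receptor, and STAT proteins such as STAT5B dock there, are phosphorylated and move to the nucleus. Phosphatases, PIAS proteins and ubiquitin ligases of the CBL family act against this signal, while the PIM kinases are known transcriptional targets of STATs.

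The knockout libraries held 17494958 to 21099813 estimated counts and the wild-type libraries 17686407 to 20279181. Whether the 3 libraries of a genotype came from separate cultures is not stated, so p-values reflect no more than the spread of these samples, which may be technical. STAT5B mRNA itself remained, at 63.1, 61.8 and 60.5 CPM (counts scaled to library size with TMM) in the knockout and 70.1, 64.6 and 69.4 CPM in the wild type, and gene-level counts do not show a small mutation. Markers fixed for HEK293, among them PAX2, LHX1, VIM, CDH2, NEFL and NEFM, were detected in every library, though not all at equal levels. NEFM was at 198 ± 16.9 CPM in the knockout and 438 ± 16.5 CPM in the wild type (SD, n = 3 each; log2 fold change −1.14, edgeR adjusted p = 1.13e-08), and CDH2 fell too (−0.25, adjusted p = 0.00107). VIM (0.12, adjusted p = 0.015) and EYA1 (1.12, adjusted p = 0.00446) rose, while PAX2, LHX1 and NEFL did not pass, and the part of these differences in the values given here was not tested. Of 11 haematopoietic markers, PTPRC, CD3E, HBB and HBG1 were at 0 in every library, and the list summed to 4.83 to 5.86 CPM in the knockout and 4.74 to 5.27 CPM in the wild type.

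The 39 genes spanned a wide range of levels, given here in TPM (a transcript share that corrects for length). The phosphatase PTPN11 (SHP2), which also carries growth factor signals to the RAS pathway, was the most abundant, at 110 ± 3.29 TPM in the knockout and 132 ± 0.735 TPM in the wild type (SD, n = 3 each). Next in the wild type came JAK1 with 77.2 ± 3.92 TPM, IFNGR2 with 63.9 ± 2.58 TPM, TYK2 with 62.7 ± 8.84 TPM and PIM3 with 60.4 ± 3.51 TPM, and the last 3 of these did not differ beyond their spread. JAK2 stood far below JAK1 and TYK2, at 2.03 ± 0.166 TPM in the knockout and 3.06 ± 0.584 TPM in the wild type, and JAK3 was lower still, at 0.387 ± 0.102 and 0.370 ± 0.0906 TPM in knockout and wild type. Among receptor chains the interferon receptors and IL6ST were the most abundant, and EPOR, IL4R and CNTFR lay between 3.41 and 4.93 TPM in both genotypes.

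The 4 genes PRLR, IL2RG, IL7R and PTPN6 were at or near 0. PRLR, the prolactin receptor, had 0 counts in all 6 libraries, which allows up to 0.0534 CPM over the knockout group and 0.0526 CPM over the wild-type group (3 counts per group, counting error only). IL2RG, the chain shared by several interleukin receptors, had 0 counts in the knockout and 1 in the wild type. IL7R had 2 counts in the knockout and 0 in the wild type. PTPN6 (SHP1), the phosphatase of blood cells, had 7 counts over the knockout libraries and 11 over the wild-type libraries. None of them was tested, and no fold is given.

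**Figure D1:**
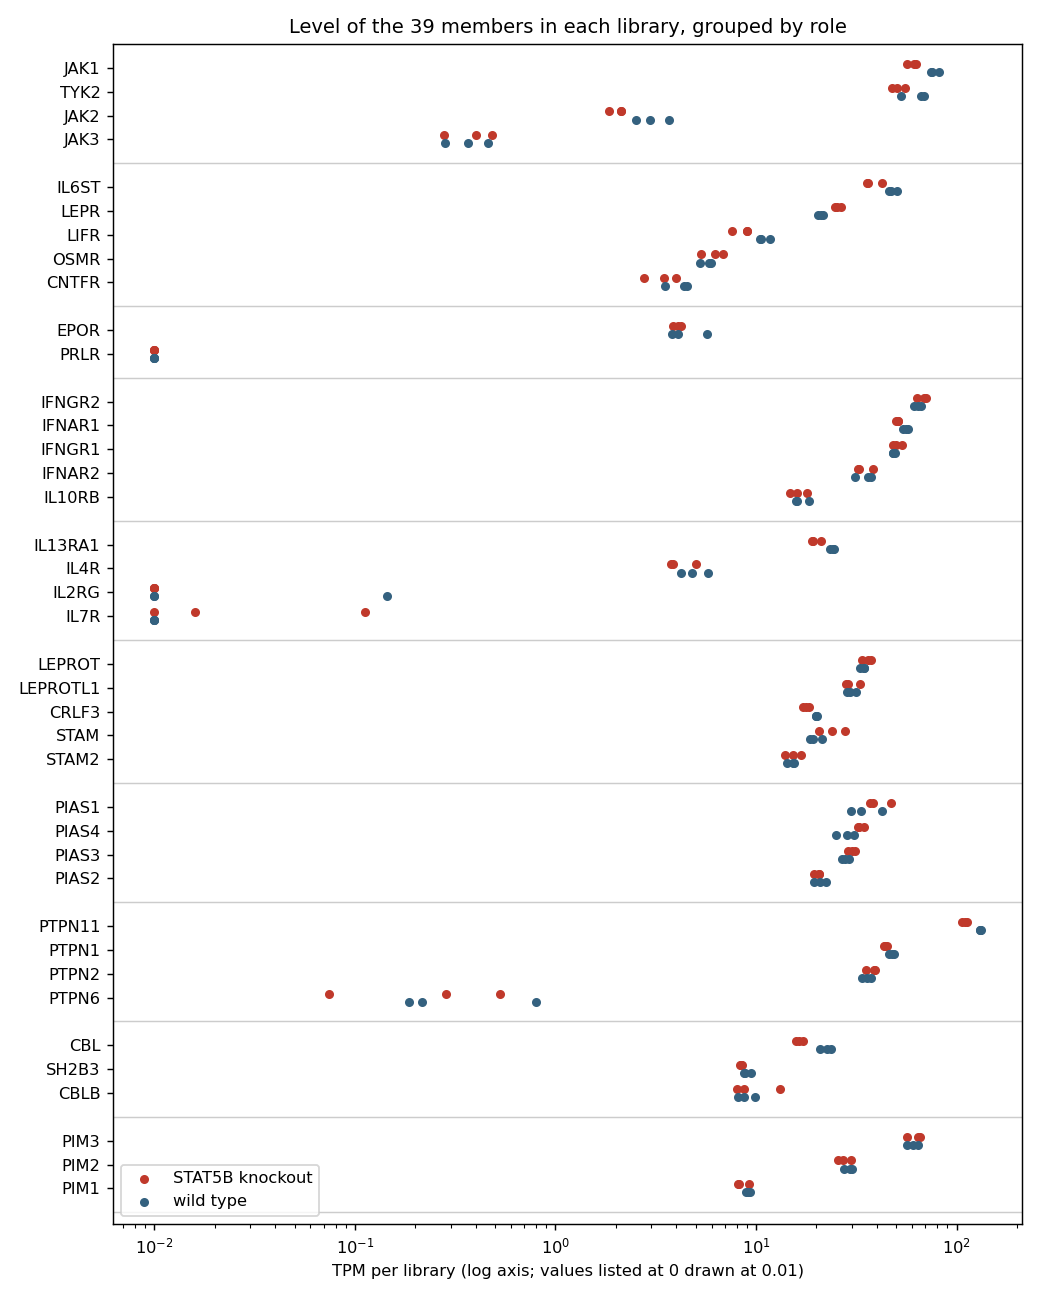
TPM of each of the 39 genes in each library on a log axis, with knockout points above wild-type points and genes grouped by role; values listed at 0 are drawn at 0.01. PTPN11 and JAK1 sit highest in the wild type, followed by IFNGR2, TYK2 and PIM3, while JAK3, PRLR, IL2RG, IL7R and PTPN6 lie below 1 TPM in every library.

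In the knockout 5 of the 35 tested genes rose and 7 fell by edgeR's quasi-likelihood test at an adjusted p under 0.05. Across all genes tested 12.1% rose and 11.4% fell, so 23.4% were called. Among the 35 genes 14.3% rose and 20% fell. LEPR, PIAS3, PIAS1, IFNGR1 and IFNGR2 rose, and CBL, JAK1, TYK2, IL13RA1, IL6ST, LIFR and PTPN11 fell. The changes were small: the 12 had a median absolute log2 fold change of 0.22, against 0.25 over all genes called, and the steepest was −0.34. The median over the 35 genes was 0.0018 on the log2 scale and over all genes tested 0.0063. In bulk RNA, fewer cells with an mRNA and less of it per cell cannot be told apart. The knockout values lay wholly above the wild-type values for 9 of the 35 genes and wholly below for 9, where 19.9% and 18.7% of all genes tested did so.

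**Figure D2:**
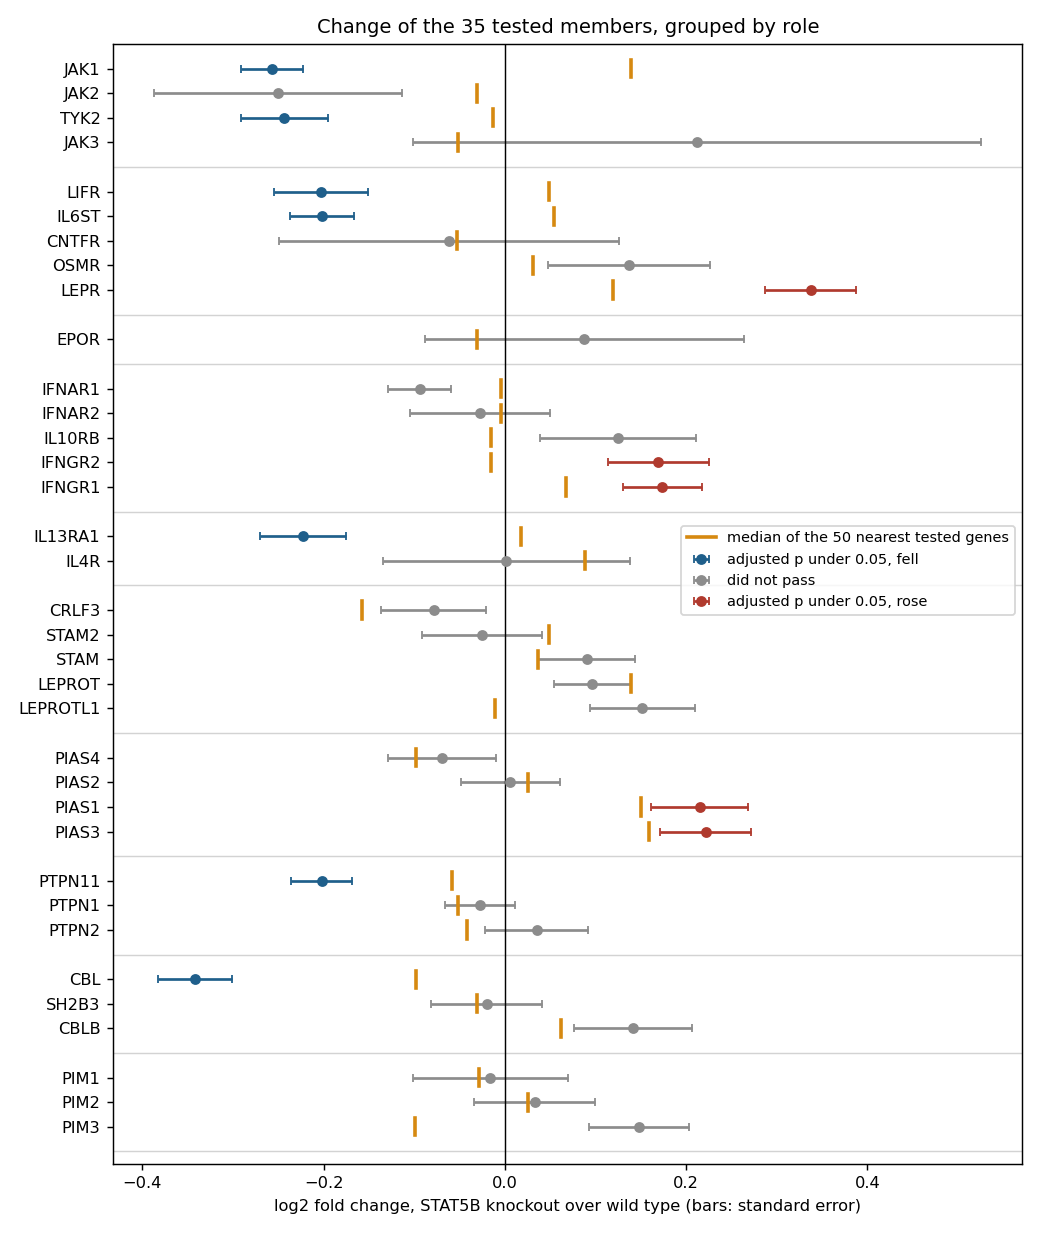
Log2 fold change of the 35 tested genes, knockout over wild type, with standard errors, grouped by role; the upright tick is the median of the 50 nearest tested genes on the chromosome. Fallen genes lie between −0.34 and −0.20 and risen genes between 0.17 and 0.34. Among the risen genes the ticks of LEPR, PIAS1, PIAS3 and IFNGR1 are themselves above 0, and that of IFNGR2 is below.

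Both abundant JAKs fell and neither rare one passed. JAK1 (chr1:64833229-64966504, minus strand, hg38), which serves interferon, interleukin-6 family and gamma chain receptors, had 146, 142 and 142 CPM in the knockout, against 169, 177 and 169 CPM in the wild type. Every knockout library was below every wild-type library, and the means were 144 ± 2.37 in the knockout and 172 ± 4.39 CPM in the wild type (SD, n = 3 each). The log2 fold change was −0.26 (SE 0.034, edgeR adjusted p = 0.000114). TYK2 (chr19:10350529-10380676, minus strand), which pairs with JAK1 on type I interferon receptors, had 47.3, 49.7 and 50.6 CPM in the knockout, against 59.2, 57.1 and 58.4 CPM in the wild type. These groups too did not overlap, with a log2 fold change of −0.24 (SE 0.048, edgeR adjusted p = 0.00221). On log2(TPM + 1) TYK2 no longer passed (log2 fold change −0.28, adjusted p = 0.131), nor with offsets for effective length (−0.19, adjusted p = 0.277).

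JAK2, the kinase of the erythropoietin, prolactin and growth hormone receptors through which STAT5 is classically activated, had 5.17, 6.91 and 5.83 CPM in the knockout, against 6.94, 6.66 and 7.78 CPM in the wild type. The groups overlapped, and its log2 fold change of −0.25 (SE 0.14) was as large as that of TYK2 but did not pass (edgeR adjusted p = 0.212). JAK3, the partner of IL2RG in lymphocytes, had 1.59, 1.34 and 0.914 CPM in the knockout, against 1.35, 1.10 and 0.886 CPM in the wild type, which overlap (edgeR adjusted p = 0.680). No JAK rose: none did at an unadjusted p under 0.05, and the count was 0 in DESeq2 and limma-voom as well.

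The shared chain of the interleukin-6 family and its partner for leukaemia inhibitory factor both fell. IL6ST (chr5:55935095-55994993, minus strand), the signalling chain of this family, had 109, 108 and 104 CPM in the knockout, against 124, 123 and 122 CPM in the wild type. The groups did not overlap, with a log2 fold change of −0.20 (SE 0.036, edgeR adjusted p = 0.000973). LIFR (chr5:38474963-38608354, minus strand), which forms the leukaemia inhibitory factor receptor with IL6ST, had 45.5, 49.4 and 48.2 CPM in the knockout, against 57.3, 54.6 and 53.0 CPM in the wild type. Its groups did not overlap either, and its log2 fold change was −0.20 (SE 0.052, edgeR adjusted p = 0.0118). LIFR was the less secure of the pair. Its call ended in 6 of the 17 other settings, and its log2 fold change ran from −0.36 to −0.05 over the settings. The 6 included the fit without wild-type replicate 1 (adjusted p = 0.0584), log2(TPM + 1) and offsets for effective length. A fit with offsets for length and GC, which was added once the data had been seen, moved LIFR to −0.05 (adjusted p = 0.540). IL6ST stayed at −0.18 (adjusted p = 0.00191) there. The IL6ST call ended with offsets for effective length (−0.24, adjusted p = 0.0613).

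OSMR, the oncostatin M receptor chain that starts 238 kb beyond LIFR and is read from the other strand, did not follow it. It had 11.8, 11.4 and 11.3 CPM in the knockout, against 10.8, 9.96 and 10.6 CPM in the wild type, with every knockout library higher but a log2 fold change of 0.14 (SE 0.089) that did not pass (edgeR adjusted p = 0.303). Within 1 Mb of this pair, none of the 8 other tested genes passed in edgeR. CNTFR, the ciliary neurotrophic factor receptor, had 3.69 ± 0.640 CPM in the knockout and 3.86 ± 0.532 CPM in the wild type (SD, n = 3 each; edgeR adjusted p = 0.85).

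The motif known for STAT5 binding, TTCNNNGAA, which reads the same on both strands, was searched in RefSeq promoter windows (GRCh38.p14) from 250 bases before to 50 after each start. The table held windows for 35 of the 39 genes, without IFNAR2, LEPROTL1, PTPN11 and CBL. The motif was in 3 of 54 windows of these genes (5.56%) and in 7.66% of 35116 windows over all genes. LIFR held it at 2 of its 3 listed starts, 165 and 182 bases upstream, and IL10RB once, 11 bases downstream. The LIFR stretches are shown because LIFR was the only called gene with a match among those that had a window, beside CISH, a classical STAT5 target whose promoter holds 4. Capitals mark the motif, and a match describes letters and does not show binding.
LIFR, chr5:38595512-38595620, minus strand: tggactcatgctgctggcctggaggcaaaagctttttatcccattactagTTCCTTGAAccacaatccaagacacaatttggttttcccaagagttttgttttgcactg
LIFR, chr5:38557591-38557699, minus strand: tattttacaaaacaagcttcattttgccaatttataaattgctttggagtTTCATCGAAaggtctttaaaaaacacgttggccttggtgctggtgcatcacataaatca
CISH, chr3:50611878-50612015, minus strand: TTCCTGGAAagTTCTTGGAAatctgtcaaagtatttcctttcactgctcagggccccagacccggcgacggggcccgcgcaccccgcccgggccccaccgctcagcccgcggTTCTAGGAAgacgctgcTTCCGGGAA
CISH itself had 1.73 CPM in the knockout and 1.71 CPM in the wild type on average and did not pass (edgeR adjusted p = 0.963).

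The leptin receptor gave the largest rise. LEPR (chr1:65420652-65641559, plus strand), the receptor of the adipose hormone leptin, had 61.6, 67.6 and 63.1 CPM in the knockout, against 51.1, 49.6 and 51.6 CPM in the wild type. All knockout libraries were higher, and the means were 64.1 ± 3.13 in the knockout and 50.8 ± 1.03 CPM in the wild type (SD, n = 3 each). The log2 fold change was 0.34 (SE 0.050, edgeR adjusted p = 0.000265). LEPROT (endospanin-1), which lowers the amount of leptin receptor at the cell surface, is known to share its promoter and first exons with LEPR. It had 79.6, 81.1 and 80.7 CPM in the knockout, against 75.0, 72.5 and 78.2 CPM in the wild type. These groups did not overlap, but the log2 fold change of 0.10 (SE 0.042) did not pass (edgeR adjusted p = 0.116).

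RefSeq lists 2 starts for LEPR, and the window of the second is identical to that of LEPROT. It is shown up to that start because the genes share it. The difference between their changes was tested only through the LEPR share of their reads, given next. Capitals mark the 17 bases from the first to the second LEPR start. The 251 bases hold 73.3% G and C and 27 CG pairs, with no TTCNNNGAA.
LEPR and LEPROT, chr1:65420418-65420668, plus strand: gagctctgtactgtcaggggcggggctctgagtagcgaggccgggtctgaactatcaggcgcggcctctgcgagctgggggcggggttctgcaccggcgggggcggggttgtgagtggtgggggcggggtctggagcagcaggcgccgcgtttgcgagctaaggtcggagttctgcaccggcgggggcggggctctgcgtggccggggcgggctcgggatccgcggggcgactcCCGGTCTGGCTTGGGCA

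Reads of the shared exons were divided between LEPR and LEPROT by estimation, so each level is uncertain, and their sum and ratio were taken as well. Together they had 141, 149 and 144 CPM in the knockout and 126, 122 and 130 CPM in the wild type. LEPR took 43.6%, 45.4% and 43.9% of this sum in the knockout, against 40.5%, 40.6% and 39.7% in the wild type. The difference of 4.02 percentage points gave p = 0.1 in a two-sided exact permutation test, the smallest that 3 against 3 samples allow.

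JAK1 and LEPR are close neighbours on the short arm of chromosome 1 and changed in opposite directions. JAK1 ends 454 kb before LEPROT starts. Chromosome 1 was higher as a whole in the knockout: the median log2 fold change of its 1574 tested genes was 0.15, with 35.8% called as risen and 4.83% as fallen. Set against the median of its chromosome, JAK1 had a log2 difference of −0.41, LEPR 0.19, LEPROT −0.05 and PIAS3 0.07. Between and around them, within 1 Mb, AK4, a mitochondrial adenylate kinase, and DNAJC6, a clathrin uncoating factor, rose (log2 fold changes 0.29 and 0.27, edgeR adjusted p = 0.00635 and 0.000315), and CACHD1, beyond JAK1, fell (−0.14, adjusted p = 0.0138). The part of the chromosome's shift in each value was not tested.

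**Figure D3:**
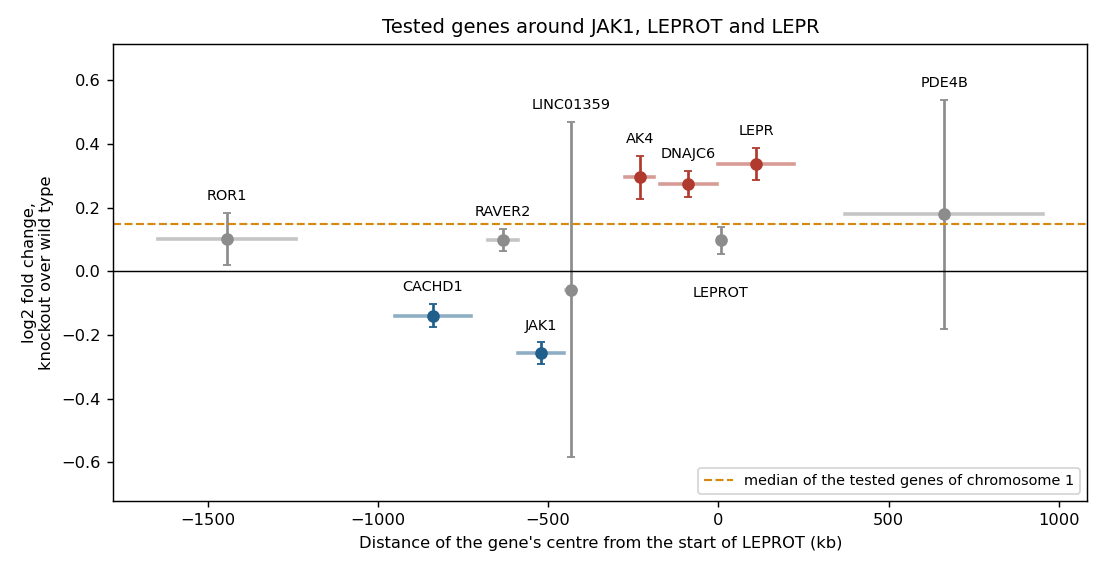
Log2 fold change with standard error of each tested gene within 1 Mb of JAK1, LEPROT and LEPR, by the distance of its centre from the start of LEPROT in kb; horizontal bars span the gene and the dashed line is the chromosome's median of 0.15. JAK1 and CACHD1 lie below 0 (blue), while AK4, DNAJC6 and LEPR lie above the dashed line (red); grey genes did not pass.

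Both chains of the interferon gamma receptor were higher, by less than any other called gene. IFNGR1 (chr6:137197484-137219449, minus strand), the ligand-binding chain, had 63.3, 62.5 and 62.9 CPM in the knockout, against 55.0, 55.5 and 56.6 CPM in the wild type. The groups did not overlap (log2 fold change 0.17, SE 0.044, edgeR adjusted p = 0.0105). Around IFNGR1 the 50 nearest tested genes had a median log2 fold change of 0.07, which leaves a difference of 0.11 that was not tested. IFNGR2 (chr21:33402896-33479348, plus strand), the second chain, had 58.8, 65.0 and 64.2 CPM in the knockout, against 54.5, 53.4 and 59.3 CPM in the wild type. Knockout replicate 1 lay below wild-type replicate 3, so the groups overlapped (log2 fold change 0.17, SE 0.055, edgeR adjusted p = 0.0399). The IFNGR2 call ended in 10 of the 17 other settings, including DESeq2 (adjusted p = 0.0639) and the fits without knockout replicate 2 or 3 (0.145 and 0.0924) or wild-type replicate 1 or 2 (0.137 and 0.158). IFNGR1 no longer passed with length and GC offsets (log2 fold change 0.12, adjusted p = 0.0551) or effective-length offsets (0.15, adjusted p = 0.135). On log2(TPM + 1) IFNGR1 was at 0.05 (adjusted p = 0.569) and IFNGR2 at 0.08 (adjusted p = 0.386).

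The type I interferon receptor did not pass in either chain, although its genes lie beside IFNGR2 on chromosome 21 in a stretch of 249 kb. IFNAR1 had 107, 110 and 110 CPM in the knockout, against 117, 117 and 115 CPM in the wild type, so all knockout libraries were lower, with a log2 fold change of −0.09 (SE 0.035, edgeR adjusted p = 0.0688). IFNAR2 had 39.1 ± 3.93 CPM in the knockout and 40.03 ± 3.46 CPM in the wild type (SD, n = 3 each; edgeR adjusted p = 0.840), and IL10RB, the second chain of interleukin-10 and interferon lambda receptors, had 19.1 ± 1.76 and 17.6 ± 1.24 CPM in knockout and wild type (edgeR adjusted p = 0.330). A readthrough transcript of IFNAR2 and IL10RB shares their reads. With it included, the 3 summed to 62.93 ± 3.997 CPM in the knockout and 63.5 ± 2.87 CPM in the wild type (SD, n = 3 each).

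Among receptors of the interleukin-4 type, IL13RA1 fell. IL13RA1 (chrX:118727572-118794539, plus strand) joins IL4R to bind interleukin-4 or interleukin-13. It had 50.04, 49.7 and 48.5 CPM in the knockout, against 57.3, 59.6 and 56.2 CPM in the wild type. The groups did not overlap (log2 fold change −0.22, SE 0.047, edgeR adjusted p = 0.00365), but it did not pass with effective-length offsets (−0.19, adjusted p = 0.0896). Its partner IL4R was at 6.86 ± 0.348 CPM in the knockout and 6.87 ± 1.19 CPM in the wild type (SD, n = 3 each; edgeR adjusted p = 0.995). EPOR, the erythropoietin receptor, was at 4.49 ± 0.575 CPM in the knockout and 4.24 ± 0.756 CPM in the wild type (SD, n = 3 each; edgeR adjusted p = 0.768).

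None of the 5 receptor-like proteins and proteins that move or sort receptors passed. LEPROT, LEPROTL1 and STAM had every knockout library above every wild-type library, as did 19.9% of all genes tested. LEPROTL1, a relative of LEPROT that lowers growth hormone receptor at the surface, had 40.8, 42.1 and 37.3 CPM in the knockout, against 35.7, 36.4 and 36.3 CPM in the wild type (log2 fold change 0.15, edgeR adjusted p = 0.0751, and 0.0221 without knockout replicate 3). STAM, an endosomal adaptor that sorts ubiquitinated receptors, had 39.9, 39.03 and 40.5 CPM in the knockout, against 37.7, 38.7 and 35.8 CPM in the wild type (edgeR adjusted p = 0.255). CRLF3, an orphan receptor-like protein, had 29.3, 29.7 and 27.5 CPM in the knockout, against 30.3, 30.4 and 30.8 CPM in the wild type, lower in each knockout library (edgeR adjusted p = 0.367). STAM2 overlapped between genotypes, at 32.0 ± 2.14 and 32.5 ± 1.92 CPM in knockout and wild type (SD, n = 3 each). In edgeR 2 of the 5 had an unadjusted p under 0.05, both upward, and in DESeq2 none did. The share of all genes at that threshold was not counted. After adjustment 23.4% of all genes tested still passed in edgeR, so the 2 are not read as a trend. Neither DESeq2 nor limma-voom called any of the 5 after adjustment.

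Of the PIAS proteins, SUMO ligases first described as inhibitors of activated STATs, PIAS1 and PIAS3 rose. PIAS3 (chr1:145848522-145859836, minus strand) had 43.9, 44.0 and 44.6 CPM in the knockout, against 36.8, 37.8 and 38.8 CPM in the wild type. The groups did not overlap, with a log2 fold change of 0.22 (SE 0.051) and an edgeR adjusted p of 0.00586. PIAS1 (chr15:68054179-68198603, plus strand) had 73.0, 71.4 and 64.4 CPM in the knockout, against 61.6, 61.0 and 57.6 CPM in the wild type, without overlap. Its log2 fold change was 0.22 (SE 0.054, edgeR adjusted p = 0.00987), and the call ended without wild-type replicate 3 (adjusted p = 0.0516). Both lie in stretches that were higher in the knockout: the 50 nearest tested genes had a median log2 fold change of 0.16 around PIAS3 and 0.15 around PIAS1, which leaves a difference of 0.06 for each. That part was not tested. On log2(TPM + 1), PIAS3 was at 0.10 (adjusted p = 0.330) and PIAS1 at 0.21 (adjusted p = 0.355).

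PIAS2 and PIAS4 did not pass. PIAS2 was at 36.8 ± 0.393 CPM in the knockout and 36.6 ± 1.48 CPM in the wild type (SD, n = 3 each; edgeR adjusted p = 0.952). PIAS4 was at 33.6 ± 0.711 CPM in the knockout and 35.3 ± 2.13 CPM in the wild type (SD, n = 3 each), with a log2 fold change of −0.07 (edgeR adjusted p = 0.447). The deposited length of PIAS4, which varies by library, was 1768 to 1964 bases in the knockout and 2286 to 2542 bases in the wild type. With offsets for effective length its log2 fold change turned to 0.34 (adjusted p = 0.0418). Such lengths did not overlap between genotypes for 4 of the 35 tested genes (11.4%; IFNAR2, PIAS4, PTPN2 and CBL) and for 10.5% of all genes tested.

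PTPN11 was the phosphatase that fell. PTPN11 (chr12:112418351-112509913, plus strand) had 362, 356 and 337 CPM in the knockout, against 404, 401 and 409 CPM in the wild type. The groups did not overlap (log2 fold change −0.20, SE 0.033, edgeR adjusted p = 0.000596), and with length and GC offsets the value was −0.14 (adjusted p = 0.00613). PTPN1 (PTP1B), which dephosphorylates JAK2 and TYK2, was at 103 ± 2.91 CPM in the knockout and 105 ± 3.24 CPM in the wild type (SD, n = 3 each; edgeR adjusted p = 0.669). PTPN2 (TC-PTP), which acts on JAK1 and JAK3, was at 36.0 ± 1.29 CPM in the knockout and 35.2 ± 1.41 CPM in the wild type (SD, n = 3 each; edgeR adjusted p = 0.708).

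The ubiquitin ligase CBL had the steepest change of the 35 genes. CBL (chr11:119206276-119313926, plus strand), which tags activated receptors and kinases for breakdown, had 121, 118 and 124 CPM in the knockout, against 160, 155 and 145 CPM in the wild type. All knockout libraries were lower, and the means were 121 ± 3.15 in the knockout and 153 ± 7.64 CPM in the wild type (SD, n = 3 each). The log2 fold change was −0.34 (SE 0.041, edgeR adjusted p = 5.5e-05). With length and GC offsets its log2 fold change was −0.15 (adjusted p = 0.00686). Around CBL the 50 nearest tested genes had a median log2 fold change of −0.10. This leaves a difference of −0.24 for CBL, against −0.40 for JAK1 on the same measure, and that part was not tested. The related ligase CBLB went the other way without passing. It had 22.6, 22.2 and 21.7 CPM in the knockout, against 19.9, 20.1 and 20.3 CPM in the wild type, with every knockout library higher and a log2 fold change of 0.14 (SE 0.065, edgeR adjusted p = 0.137). SH2B3 (LNK), an adaptor that restrains JAK2 in blood cells, was at 26.6 ± 0.597 CPM in the knockout and 27.0 ± 1.09 CPM in the wild type (SD, n = 3 each; edgeR adjusted p = 0.851).

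**Figure D4:**
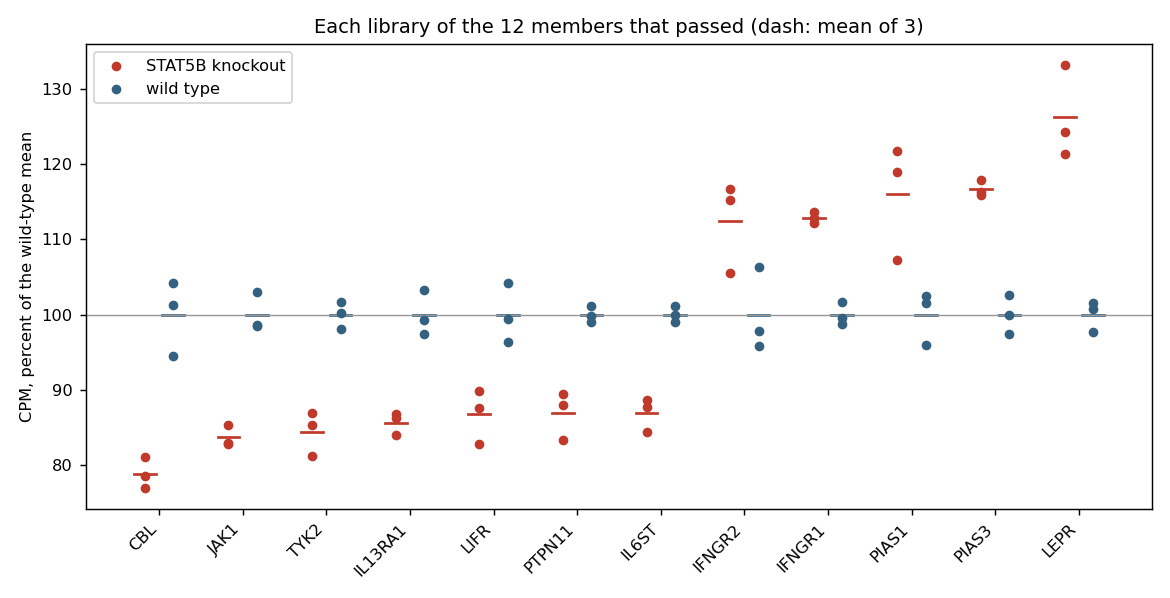
CPM of the 12 called genes in each library as a percent of the wild-type mean, with knockout points left of wild-type points and a dash at each mean. The groups stay apart for 11 genes, from CBL with the lowest knockout mean to LEPR with the highest, and overlap for IFNGR2.

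None of the PIM kinases, survival kinases induced by STATs in blood cells, passed in edgeR, DESeq2 or limma-voom. PIM1 was at 13.1 ± 0.941 CPM in the knockout and 13.2 ± 0.218 CPM in the wild type, and PIM2 at 32.6 ± 2.54 and 31.9 ± 1.42 CPM in knockout and wild type (SD, n = 3 each; edgeR adjusted p = 0.919 and 0.771). PIM3 was at 60.9 ± 3.87 CPM in the knockout and 54.9 ± 2.22 CPM in the wild type (SD, n = 3 each), with a log2 fold change of 0.15 (SE 0.055). It had an unadjusted p under 0.05 but an edgeR adjusted p of 0.0698, and it passed in 4 of the 17 other settings (adjusted p = 0.0133 to 0.0451), such as without knockout replicate 2 (0.0203).

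The deposited lengths of the 7 fallen genes, averaged over libraries, had a median of 4829 bases and ran from 1780 for TYK2 to 11160 for CBL, against 2370 bases for the 5 that rose (1604 to 4594) and 2849 bases for the 23 that did not pass. Over all genes tested the medians were 4057 bases for genes that fell, 1996 for genes that rose and 2247 for the rest. No test was made of these medians. CBL and LIFR, with 11160 and 9384 bases, were the longest of the 35 and moved most under length and GC offsets. Under those offsets 4 of the 35 genes rose (LEPR, PIAS1, PIAS3 and PIM3) and 6 fell (CBL, JAK1, TYK2, IL13RA1, IL6ST and PTPN11), where 11.1% of all genes in that fit rose and 9.38% fell.

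Several of these genes overlap others on the opposite strand, and no source used here says whether counting used strand, so reads of the overlaps cannot be assigned with certainty. MCAM, which overlaps CBL, rose (log2 fold change 0.43, edgeR adjusted p = 0.000856). RPL6 beside PTPN11 (−0.02), RAVER2 beside JAK1 (0.10) and TMEM50B beside IFNGR2 (−0.06) did not pass. Nor did LIFR-AS1 beside LIFR (0.12), NUDT17 beside PIAS3 (0.28), or CALML4 (0.19) and a gene without a symbol (0.01) beside PIAS1.

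Other pathway genes from a list set up with the members moved in both directions. Of 89 such genes (STATs, the SOCS family, further receptors, ligands and adaptors) 50 were tested, 4 rose (IL12RB2, STAT4, SOCS2 and SHC1) and 5 fell (STAT2, STAT5B, SOCS7, SH2B1 and BRWD1), or 18.0% against 23.4% of all genes tested. The STAT5B call, at an edgeR adjusted p of 0.0468, ended in 13 of the 17 other settings. IL12RB2, a chain of the interleukin-12 receptor on chromosome 1, had 17.6, 15.5 and 17.03 CPM in the knockout, against 10.5, 10.5 and 8.86 CPM in the wild type. It did not overlap, with a log2 fold change of 0.75 (SE 0.095, edgeR adjusted p = 8.67e-05), larger than that of any of the 35 genes. Set against the median of its chromosome, IL12RB2 had a log2 difference of 0.60, which was not tested. IL12RB1, the other chain, was not tested, with 0 counts in all 6 libraries. STAT4 had a larger log2 fold change than IL12RB2, at 0.86 (SE 0.26, edgeR adjusted p = 0.0294). Its level was low, at 2.30 ± 0.547 CPM in the knockout and 1.26 ± 0.0485 CPM in the wild type (SD, n = 3 each). SH2B1, an adaptor that enhances JAK2 and leptin signalling, was at 38.9 ± 2.22 CPM in the knockout and 46.5 ± 1.64 CPM in the wild type (SD, n = 3 each; log2 fold change −0.26, edgeR adjusted p = 0.00491). SHC1, an adaptor to the RAS pathway that also lies on chromosome 1, was at 38.4 ± 1.77 CPM in the knockout and 32.0 ± 1.32 CPM in the wild type (SD, n = 3 each; log2 fold change 0.26, edgeR adjusted p = 0.00486). SOCS2 and SOCS7 belong to a family that feeds back on cytokine receptors. SOCS2 was at 15.9 ± 0.313 CPM in the knockout and 10.5 ± 0.511 CPM in the wild type (SD, n = 3 each). Its log2 fold change was 0.59 (edgeR adjusted p = 0.000179), while SOCS7 had a log2 fold change of −0.33 (edgeR adjusted p = 0.000482). BRWD1, whose Drosophila relative was described as a JAK-STAT regulator, had one of −0.29 (edgeR adjusted p = 0.000127).

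**Figure D5:**
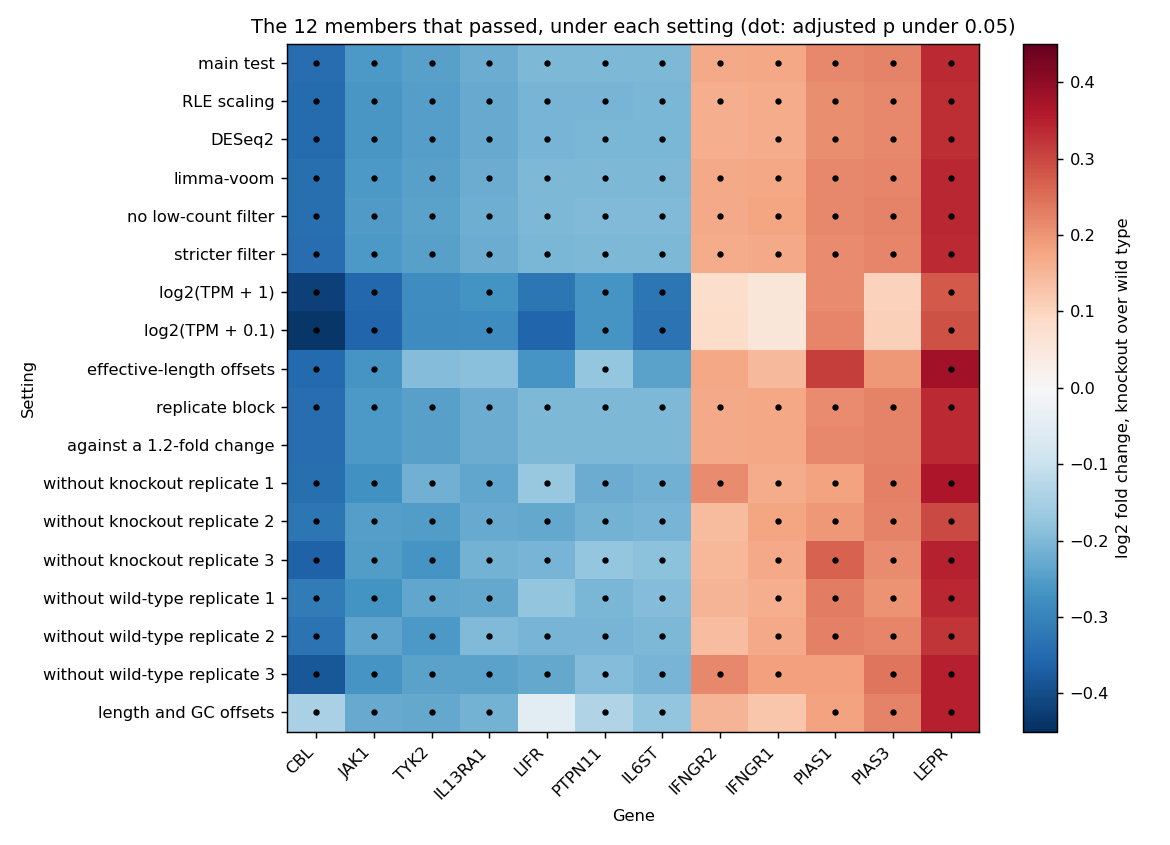
Log2 fold change of the 12 called genes (columns) under the main test and each alternative setting (rows), blue for lower and red for higher in the knockout; a dot marks an adjusted p under 0.05. CBL, JAK1, PTPN11 and LEPR carry a dot in every row except the test against a 1.2-fold change, where no gene does.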

How the data were processed

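Per the labels, mRNA libraries were made with a KAPA kit from 3 STAT5B knockout and 3 wild-type HEK293 samples. The submitters' processing notes name FastQC, fastp, DRAGEN, Picard and hg38, without versions. No source used here gives the annotation release or whether strand was used. Per the file headers, the authors deposited for each sample the estimated counts and TPM of every gene with its length and effective length; TPM is the authors' own scaling and was used for levels. Symbols and positions came from GENCODE (GRCh38) by Ensembl identifier, and promoters from RefSeq (GRCh38.p14).

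Estimated counts were rounded to whole numbers. In each library 7.12% to 7.64% of all 60609 values, those at 0 included, were not whole, and 22363 to 23110 genes were above 0. Genes with low counts were left out (filterByExpr in edgeR 4.0.16, minimum count 10), and 15958 genes were scaled by TMM and tested with edgeR's quasi-likelihood F test, knockout over wild type, with Benjamini-Hochberg adjustment over all of them at 0.05. The other settings were DESeq2 1.42.0, RLE scaling, limma-voom (limma 3.58.1), looser and stricter filters, limma on log2(TPM + 1) and log2(TPM + 0.1), length offsets, a replicate block, a 1.2-fold minimum and each library left out (R 4.3.3). The test was tried on simulated data with 200 changed genes, far fewer than the 3742 called here. That trial therefore does not bear on the results given. All members are described, with values per sample for the JAKs, for called genes and where groups did not overlap. Of the other pathway genes those past the threshold are named, with STAT5B; CISH, IL12RB1 and the neighbours of members were named after their values were seen. Members and lists were chosen with earlier results of these data known.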

Additional observations from a re-analysis of the deposited data

How the results depend on the processing

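The direction of the 12 called genes held in all 17 alternative settings, and the calls of CBL, JAK1, LEPR and PTPN11 held in 16. Against a 1.2-fold change in edgeR, 295 genes were called, and 0 of the 35 genes rose and 0 fell (1 up and 1 down at an unadjusted p under 0.05). Of the other pathway genes 2 rose there (IL12RB2 and SOCS2) and 0 fell. On log2(TPM + 1) there were 1623 calls over all genes, of which 30.1% were rises against 51.4% in the main test; 1 of the 35 genes rose and 5 fell, and 3 other pathway genes rose and 1 fell. On log2(TPM + 0.1) there were 1622 calls, 29.8% of them rises, with 1 and 5 of the 35 genes and 3 and 1 of the others. Effective-length offsets gave 1750 calls, 60.9% of them rises, with 2 of the 35 genes risen and 3 fallen, and 3 other pathway genes risen and 1 fallen. The cause was not tested. RLE scaling, limma-voom, both filters, DESeq2 and the length and GC offsets, chosen after seeing the data, gave 3038 to 4081 calls, with 4 to 6 of the 35 genes risen and 6 or 7 fallen. Leaving out each library gave 2618 to 3575 calls, 4 to 5 of the 35 genes risen and 6 to 7 fallen, and 3 to 5 other pathway genes risen and 4 to 7 fallen.

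Replicate numbers gave no clear pairing of the samples (correlations of same-numbered deviations 0.00375, 0.104 and 0.0415). Knockout 2 and knockout 3 correlated best with the wild type of the same number, but knockout 1 with wild type 3, at 0.0519. With the replicate block 3660 genes were called, 6 of the 35 rose, PIM3 being added, and 7 fell.

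Signs turned in genes that had not passed, and passed the test after turning only for PIAS4. IL4R was −0.0034 with RLE scaling and −0.0050 in DESeq2. On log2(TPM + 1) EPOR was −0.11, IL10RB −0.040, IL4R −0.19, STAM2 0.023, PIAS2 −0.042, PIAS4 0.24 and PIM2 −0.074. On log2(TPM + 0.1) EPOR was −0.13, IL10RB −0.042, IL4R −0.22, STAM2 0.024, PIAS2 −0.044, PIAS4 0.24 and PIM2 −0.076. With effective-length offsets EPOR was −0.058, IFNAR2 0.073, IL4R −0.13, STAM2 0.12, PIAS4 0.34 and SH2B3 0.00070. With length and GC offsets PIAS2 was −0.020, PTPN1 0.0066, PTPN2 −0.034, SH2B3 0.095 and PIM1 0.0050. Over the fits without each library, CNTFR ranged over −0.16 to 0.066, EPOR −0.031 to 0.22, IFNAR2 −0.12 to 0.025, IL4R −0.083 to 0.14, PIAS2 −0.013 to 0.041, PIM1 −0.074 to 0.020, PIM2 −0.019 to 0.089, SH2B3 −0.045 to 0.013 and STAM2 −0.072 to 0.031. Genes with under about 5 CPM, such as JAK3, CNTFR and EPOR, had standard errors of 0.18 to 0.31 on the log2 scale, so changes of the size seen in the called genes were not detectable for them at this depth. JAK2 and IL4R, with group means of 5.97 to 7.13 CPM, had standard errors of 0.14. For JAK2 a log2 fold change of −0.25, within the range of the called genes, did not pass.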
